A study of Mus musculus with 6 samples.

Results

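Nitric oxide synthesis, arginine use and the phagocyte NADPH oxidase were followed through 9 genes, chosen by name: Nos2, Arg1, Arg2 and Ass1 of arginine metabolism, and Cybb, Cyba, Ncf1, Ncf4 and Rac2 of the oxidase. All 9 were found among the 55536 Ensembl gene IDs by the mouse annotation GENCODE M21, and 8 of them were high enough to be among the 11120 genes tested. The cells were RAW264.7, a transformed macrophage line from mouse that is widely used as an osteoclast precursor because the cytokine RANKL drives it to form bone-resorbing cells. The first group received RANKL at 50 ng/mL with 4 µM etelcalcetide, a calcimimetic peptide that acts on the calcium-sensing receptor (n = 3 libraries), and the second received RANKL at 50 ng/mL alone (n = 3 libraries). RANKL was thus present in every library, and none without it was analysed here. Exposure lasted 5 days by the series design, but by the sample labels it was 5 days in replicate 1, 6 days in replicate 2 and 7 days in replicate 3, alike in both groups. Separate cultures are not stated for the replicates, and p-values here reflect only the spread among these libraries, possibly technical.

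Inducible nitric oxide synthase, encoded by Nos2, turns arginine into nitric oxide and citrulline, and it needs the cofactor tetrahydrobiopterin. Arginases compete for the same arginine and yield urea and ornithine, the precursor of polyamines and proline, while argininosuccinate synthase and lyase rebuild arginine from citrulline. The phagocyte oxidase moves electrons from NADPH to oxygen to give superoxide: its membrane core is made of the Cybb and Cyba proteins, and it becomes active when cytosolic subunits, among them the Ncf1 and Ncf4 proteins, and a Rac GTPase join that core. Macrophages use both products against microbes, and nitric oxide and reactive oxygen are also known as signals in osteoclasts and their precursors.

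The libraries held between 13742913 and 16264432 gene-assigned reads. FPKM is the number of reads scaled by exon length and by library depth, so its levels can be compared between genes. Macrophage markers summed to 2979 to 3137 FPKM over 9 genes with etelcalcetide and 2646 to 2799 FPKM with RANKL alone. Lyz2 gave the largest part, with means of 1830 and 1748 FPKM, and Mertk was too low to test. Of the 8 tested markers 4 were higher and 0 lower with etelcalcetide (limma adjusted p under 0.05). These were Adgre1, 2.82-fold higher, Fcgr1, 2.34-fold, Itgam, 1.70-fold, and Spi1, 1.21-fold, rises that the sums hide. Lyz2, Cd68, Csf1r and Ptprc did not pass. Of 8 tested osteoclast markers, 5 were lower and 0 higher. The sum over the 9 genes of that list was 183 to 198 FPKM with etelcalcetide and 348 to 482 FPKM with RANKL alone. Most of the etelcalcetide sum was Mmp9. Its means were 162.8 FPKM with etelcalcetide and 158.5 FPKM with RANKL, and it did not pass (limma adjusted p = 0.803). Dcstamp and Itgb3 did not pass either. The sums hide larger falls: Ctsk was 337-fold lower, Atp6v0d2 68.8-fold, Acp5 30.2-fold and Ocstamp 2.98-fold, and Oscar had 0 reads with etelcalcetide. The oxidase is also typical of neutrophils, but the 9 neutrophil markers summed to 0.430 to 0.567 FPKM with etelcalcetide and 0.103 to 0.304 FPKM with RANKL, and Ly6g, Mpo, Ltf, S100a9 and Retnlg had 0 reads in all 6 libraries. Sums of 7 lymphocyte markers, 7 fibroblast and osteoblast markers and 7 epithelial and endothelial markers were all under 1 FPKM in every library, and Cd3e, Col1a2, Col3a1, Krt8 and Cdh1 had 0 reads. In bulk samples a lower level in every cell and fewer cells that express a gene cannot be told apart.

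Of the 8 tested genes, 5 were higher and 1 lower with etelcalcetide and 2 did not pass (limma, Benjamini-Hochberg adjusted p under 0.05). Over all tested genes 53.0% passed, 26.0% of all tested being higher and 27.0% lower. With library totals in place of the scaling factors the share of higher genes among those that passed was 61.0%, against 49.1%. The median log2 fold change was 0.38 over the 8 genes and -0.01 over all tested genes. For 6 of the 8 genes no etelcalcetide library fell within the range of the RANKL libraries or the reverse, and 61.2% of all tested genes were likewise without overlap. Both shares are thus high in these data before any gene is singled out. The 9 genes were chosen with earlier results of these data known. Neither the number nor the sizes of their changes is therefore a test of the group.

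Arginine metabolism showed the widest changes, in opposite directions. Nos2 (ENSMUSG00000020826, chromosome 11, 78920787 to 78960254 on GRCm38) had 1.04, 1.06 and 1.10 FPKM in etelcalcetide replicates 1, 2 and 3, against 11.5, 8.61 and 8.60 FPKM in RANKL replicates 1, 2 and 3. The etelcalcetide libraries lay close together and far below all RANKL libraries, among which replicate 1 stood highest. The log2 fold change on the log2(FPKM + 0.1) scale was -3.11 (SE 0.126, limma adjusted p = 3.3e-07), 8.65-fold lower, and 56 of the 11120 tested genes had a value this low or lower. These levels rest on 214 reads over the etelcalcetide group and 1926 over the RANKL group. Without RANKL replicate 1 the log2 fold change was -2.98.

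Ass1, which encodes argininosuccinate synthase, the enzyme that starts the rebuilding of arginine from citrulline (chromosome 2, 31470207 to 31520672), had 3.87, 4.16 and 2.95 FPKM with etelcalcetide, against 0.652, 0.548 and 0.684 FPKM with RANKL alone. All 3 etelcalcetide libraries were above all RANKL libraries. The log2 fold change was 2.29 (SE 0.163, limma adjusted p = 8.97e-06), 4.88-fold higher, the value 54th from the top among tested genes. Its level was low in both groups, with 398 reads over the etelcalcetide libraries and 69 over the RANKL libraries.

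The arginases differed from each other. Arg2, the mitochondrial arginase (chromosome 12, 79130777 to 79156301), had 2.59, 3.52 and 2.76 FPKM with etelcalcetide, against 1.01, 0.794 and 0.723 FPKM with RANKL alone. The groups did not overlap, and the log2 fold change was 1.62 (SE 0.171, limma adjusted p = 8.34e-05), 3.08-fold higher. Arg2 was low in both groups, with 190 reads over the etelcalcetide libraries and 55 over the RANKL libraries. Of its exon length 28.1% is shared with Vti1b and Gm48780 on the other strand, and with strandedness unknown their reads cannot be told apart. Vti1b itself stood at 40.6 ± 2.08 FPKM with etelcalcetide and 41.2 ± 1.10 FPKM with RANKL (SD, n = 3 each) and did not pass (limma adjusted p = 0.133). Its part in the Arg2 value was not tested.

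Arg1, the cytosolic arginase of liver and of alternatively activated macrophages (chromosome 10, 24915221 to 24927484), was near the limit of detection. It had 1, 0 and 5 reads in etelcalcetide replicates 1, 2 and 3, against 4, 6 and 3 reads in RANKL replicates 1, 2 and 3. These counts overlap between the groups and were too low for the test. The ratio of reads adjusted for depth was 0.464, with a 95% exact conditional interval of 0.145 to 1.31 that covers counting error only, so a change in either direction was not detectable at this depth.

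The order of the levels turned round. With etelcalcetide the level of Nos2 was 0.403, 0.300 and 0.400 times that of Arg2 in replicates 1, 2 and 3, whereas with RANKL alone it was 11.4, 10.8 and 11.9 times as high. Against Ass1 the same ratio was 0.270, 0.254 and 0.373 with etelcalcetide and 17.6, 15.7 and 12.6 with RANKL. In all 3 etelcalcetide libraries Nos2 was therefore the lowest of the 3 detected arginine genes, and in all 3 RANKL libraries the highest. These ratios combine genes whose changes are given above and carry no test of their own. In the RANKL group they rest on only 55 Arg2 reads and 69 Ass1 reads, so their sizes are rough.

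**Figure D1:**
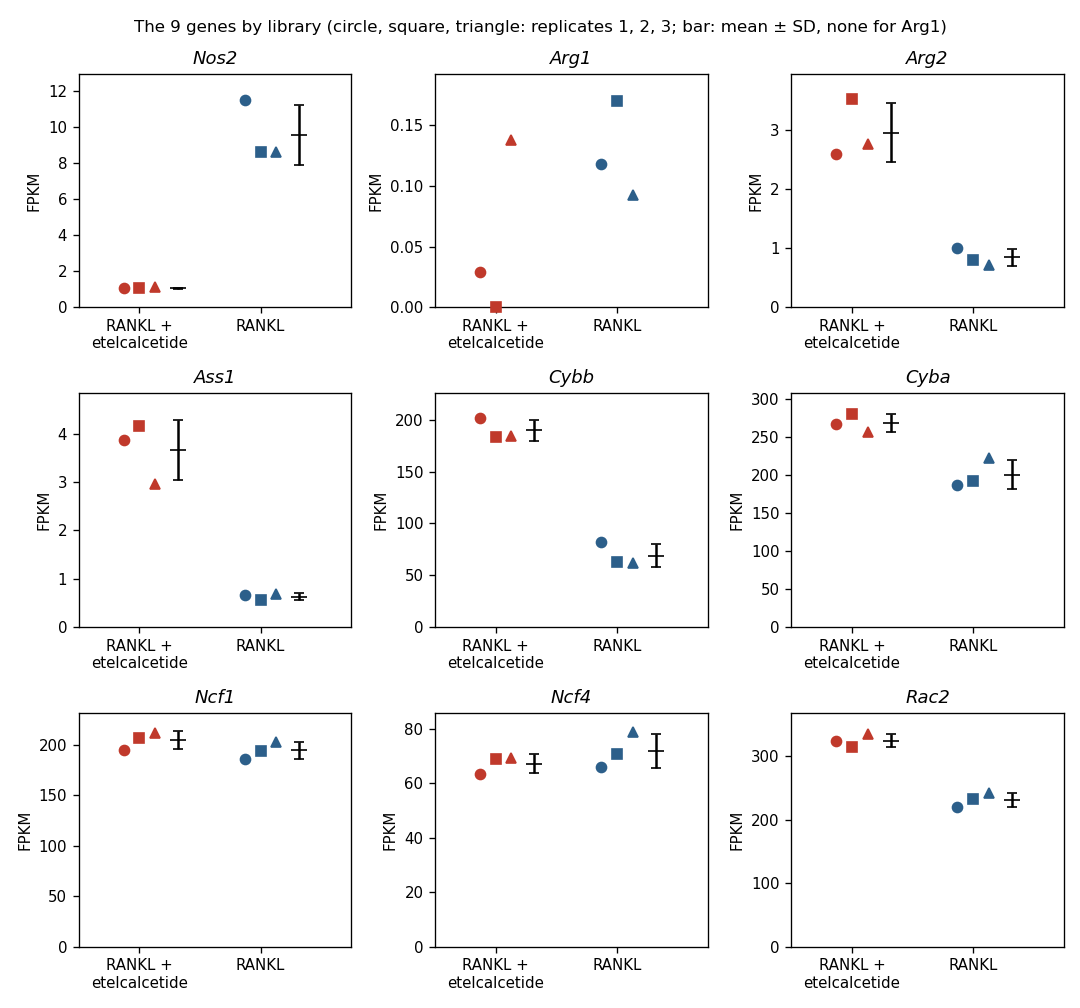
FPKM (deposited values, linear axes from 0) of the 9 genes in each library, RANKL + etelcalcetide on the left and RANKL on the right of each panel; symbols are replicates 1 to 3 and bars the mean ± SD (n = 3), with no bar for Arg1, which had 0 to 6 reads per library. Nos2 lies near 1 FPKM in the 3 etelcalcetide libraries, against 8.60 to 11.5 FPKM with RANKL; Arg2, Ass1, Cybb, Cyba and Rac2 are higher in every etelcalcetide library, and Ncf1 and Ncf4 overlap.

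In the membrane core of the oxidase both subunits were higher, by unequal amounts. Cybb, the catalytic subunit that carries the electrons (chromosome X, 9435252 to 9487771), had 202, 184 and 184 FPKM with etelcalcetide, against 81.7, 62.9 and 61.5 FPKM with RANKL alone. All 3 etelcalcetide libraries lay far above all RANKL libraries, of which replicate 1 was again the highest. The log2 fold change was 1.40 (SE 0.102, limma adjusted p = 9.78e-06), 2.63-fold higher, and without RANKL replicate 1 it was 1.53. By level Cybb ranked 222nd among the tested genes with etelcalcetide and 676th with RANKL.

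Cyba, the partner that stabilises Cybb in the membrane and docks the cytosolic subunits (chromosome 8, 122424776 to 122432930), had 268, 280.1 and 257 FPKM with etelcalcetide, against 187, 192 and 222 FPKM with RANKL alone. The groups did not overlap, although RANKL replicate 3 came near them. Its log2 fold change was 0.35 (SE 0.0734, limma adjusted p = 0.00398), 1.27-fold higher. The Cybb level was 0.754, 0.657 and 0.718 times the Cyba level with etelcalcetide and 0.438, 0.328 and 0.277 times with RANKL, so the levels of the membrane pair were closer to each other with etelcalcetide.

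The start of a pair of genes is shown as sequence because Cybb is the oxidase gene that rose most and Ncf1 is a subunit that did not pass. RefSeq promoter windows on GRCm38.p6, running from 250 bases before to 50 bases after the gene start, were matched for Ass1, Cyba, Cybb and Ncf1, 4 of the 9 genes. The RefSeq start of Cybb lies inside the longer gene span of M21 given above, so its window is not at the M21 start. They were searched on both strands for an interferon response core (GAAA, any 2 bases, GAAA), a STAT site (TTCNNNGAA), a kappa B site (GGGA, any base, TTTCC), an AP-1 site (TGANTCA), a PU.1 site (GAGGAAGT) and a cyclic AMP response element (TGACGTCA). Matches are in capitals, and both windows lie on the minus strand and read 5′ to 3′ along the gene, at chrX:9469275-9469574 for Cybb and chr5:134229576-134229875 for Ncf1.
Cybb: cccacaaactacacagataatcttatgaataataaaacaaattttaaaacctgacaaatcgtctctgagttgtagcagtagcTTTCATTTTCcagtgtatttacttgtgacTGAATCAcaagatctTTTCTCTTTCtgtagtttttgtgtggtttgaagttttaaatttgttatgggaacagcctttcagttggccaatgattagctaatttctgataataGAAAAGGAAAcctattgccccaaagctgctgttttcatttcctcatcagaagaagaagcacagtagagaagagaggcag
Ncf1: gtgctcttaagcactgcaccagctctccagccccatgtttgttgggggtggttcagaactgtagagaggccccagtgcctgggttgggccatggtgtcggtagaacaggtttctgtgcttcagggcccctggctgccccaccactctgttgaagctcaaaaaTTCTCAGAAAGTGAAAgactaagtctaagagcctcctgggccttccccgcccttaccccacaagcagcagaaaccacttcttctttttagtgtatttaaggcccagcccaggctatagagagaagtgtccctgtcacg

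The Cybb window held 3 matches to the interferon response core, the first bases of which lie 168, 124 and 29 bases before the start, and 1 match to the AP-1 site. The Ncf1 window held 1 match to the interferon response core and 1 to the STAT site, which overlap. Of all 32851 RefSeq windows of this length 3.44% held the interferon response core at least once, 5 of them 3 times or more. The AP-1 site was in 7.81% of windows and the STAT site in 8.3%. The windows of Ass1 and Cyba held none of the 6 motifs. A match describes letters only and says nothing of binding.

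The cytosolic subunits among the 9 genes did not pass. Ncf1, the organiser subunit that links the cytosolic complex to Cyba (chromosome 5, 134220053 to 134229625), had 194, 207 and 211 FPKM with etelcalcetide, against 186, 194 and 203 FPKM with RANKL alone. The groups overlapped, and the log2 fold change was -0.01 (SE 0.0553, limma adjusted p = 0.908) with an unadjusted 95% interval of -0.13 to 0.12. Its sign depended on the scaling, since it was 0.07 with library totals alone (limma adjusted p = 0.318). Of its exon length 11.1% is shared with Gtf2ird2 on the other strand, which stood at 3.78 ± 0.119 FPKM with etelcalcetide and 3.77 ± 0.242 FPKM with RANKL (SD, n = 3 each).

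Ncf4, the subunit that binds a membrane phosphoinositide (chromosome 15, 78244801 to 78262580), had 63.3, 69.0 and 69.4 FPKM with etelcalcetide, against 66.1, 70.8 and 78.8 FPKM with RANKL alone. The groups overlapped. The log2 fold change was -0.17 (SE 0.0712, limma adjusted p = 0.0671), with an unadjusted 95% interval of -0.33 to -0.01. This value lies close to the threshold: the adjusted p was 0.0218 without RANKL replicate 1 and 0.047 with limma's voom on the recovered reads, both with a negative fold change. In 12 of 15 alternatives Ncf4 did not pass. With library totals alone its log2 fold change was -0.09 (limma adjusted p = 0.298).

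Rac2, the Rac GTPase of blood cells that switches the oxidase on (chromosome 15, 78559167 to 78572783), had the highest mean level of the 9 genes in both groups. It had 324, 315 and 335 FPKM with etelcalcetide, against 219, 232 and 241 FPKM with RANKL alone. No libraries overlapped, and the log2 fold change was 0.41 (SE 0.0528, limma adjusted p = 0.000257), 1.33-fold higher. Rac2 lies 296.6 kb from Ncf4 on the same chromosome, and the difference between their fold changes was not tested. The FPKM of the 5 oxidase genes summed to 1051, 1054 and 1057 in the etelcalcetide libraries, against 740.2, 752 and 807 in the RANKL libraries.

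**Figure D2:**
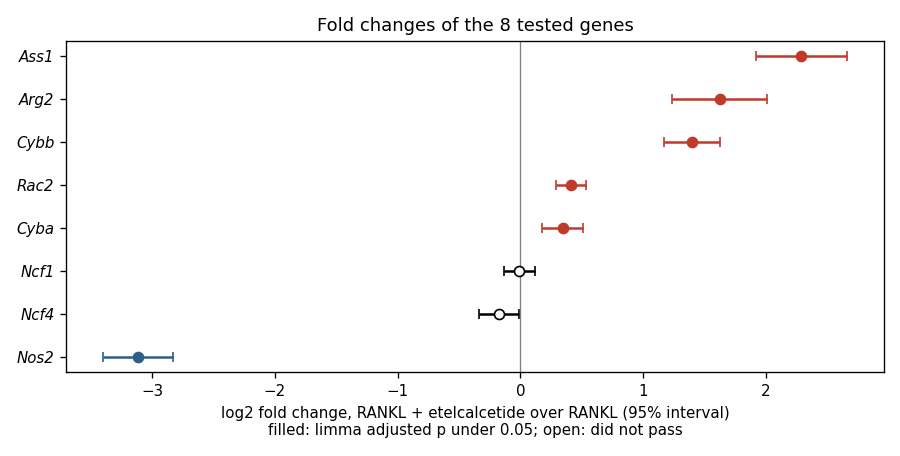
Log2 fold change of RANKL + etelcalcetide over RANKL for the 8 tested genes on the log2(FPKM + 0.1) scale, with limma's unadjusted 95% interval; filled points passed at an adjusted p under 0.05 and open points did not. Nos2 stands alone on the lower side at -3.11, Ass1, Arg2 and Cybb lie above 1, Rac2 and Cyba near 0.4, and Ncf1 and Ncf4 at or just below 0.

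Genes that work with these 9 were followed in lists chosen by function, also with earlier results of these data known. The list counts stand beside the share over all tested genes, of which 26.0% were higher and 27.0% lower, 53.0% together. No list was tested as a set. Of 8 other genes of the phagocyte oxidase and its control, all tested, 4 rose, 1 fell and 3 did not pass (median log2 fold change 0.29). Cybc1, a chaperone needed for the Cybb and Cyba proteins, rose to 12.8 ± 0.706 FPKM with etelcalcetide, against 8.86 ± 0.201 FPKM with RANKL (SD, n = 3 each), a log2 fold change of 0.45 (limma adjusted p = 0.000459). Vav1, an exchange factor that loads Rac with GTP, rose to 47.7 ± 1.89 FPKM, against 32.5 ± 2.08 FPKM, and P2rx7, an ATP-gated channel, rose to 9.74 ± 0.177 FPKM, against 6.46 ± 0.234 FPKM. Arhgdia and Arhgdib, which hold Rac and related GTPases in the cytosol, had log2 fold changes of 0.11 and 0.12 and did not pass (limma adjusted p = 0.12 and 0.109), but both passed with library totals alone, where all 8 genes passed, 7 higher and 1 lower.

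The other NADPH oxidases had few or no reads at this depth. Of 9 genes of this list 0 could be tested, and 7 had 0 reads in all 6 libraries. The remaining genes were Nox1, a catalytic subunit, and Noxo1, an organiser, named after their values were seen. Nox1 had 2, 3 and 3 reads with etelcalcetide, against 15, 13 and 13 reads with RANKL, which is a ratio of 0.196 after depth adjustment (95% exact conditional interval 0.0794 to 0.424, counting error only). Noxo1 had 15, 11 and 19 reads with etelcalcetide, against 10, 7 and 11 with RANKL, a ratio of 1.62 (95% exact conditional interval 0.986 to 2.69).

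Of 17 genes of nitric oxide synthesis and its cofactor 11 were tested, of which 3 rose, 3 fell and 5 did not pass (median log2 fold change 0.12). With library totals alone 5 rose and 2 fell, and without etelcalcetide replicate 3, and likewise without RANKL replicate 2, 1 rose and 2 fell. Gch1, the rate-limiting enzyme of tetrahydrobiopterin synthesis, had 3.30, 3.29 and 3.38 FPKM with etelcalcetide, against 1.04, 1.18 and 1.62 FPKM with RANKL. It was higher in all 3 etelcalcetide libraries (log2 fold change 1.26, SE 0.155, limma adjusted p = 0.000205), so the synthase and the entry enzyme of its cofactor moved in opposite directions. Pts, a later enzyme of the same route, rose to 8.87 ± 0.685 FPKM, against 7.06 ± 0.238 FPKM with RANKL (limma adjusted p = 0.0203), a call that was lost without etelcalcetide replicate 3 (adjusted p = 0.103) and without RANKL replicate 2 (adjusted p = 0.0707). Calm2, which encodes a calcium sensor protein that nitric oxide synthases bind, fell by 0.19 on the log2 scale (limma adjusted p = 0.0284) although the groups overlapped, and the call was lost under 7 of 15 alternatives.

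The neuronal and endothelial synthases, Nos1 and Nos3, named after their values were seen, had 15 and 9 reads over the etelcalcetide group, against 30 and 10 over the RANKL group, too few to test. Of the 6 untested genes of this list, Ddah1, an enzyme that degrades a synthase inhibitor, and both subunits of the nitric oxide receptor guanylate cyclase, Gucy1a1 and Gucy1b1, had 0 reads in all 6 libraries, which were likewise looked up after the values were seen.

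Of 11 genes of arginine transport and the urea cycle 6 were tested, of which 2 rose, 2 fell and 2 did not pass (median log2 fold change 0.04), and with library totals alone 2 rose and 1 fell. Asl, argininosuccinate lyase, which completes the step that Ass1 begins, had 7.07, 8.24 and 6.64 FPKM with etelcalcetide, against 3.50, 4.35 and 4.37 FPKM with RANKL. Like Ass1 it was higher in every etelcalcetide library (log2 fold change 0.75, SE 0.12, limma adjusted p = 0.000873). Slc7a7, the light chain of a transporter that exchanges arginine for neutral amino acids, had 3.60, 3.16 and 4.15 FPKM with etelcalcetide, against 0.949, 1.25 and 1.54 FPKM with RANKL (log2 fold change 1.41, SE 0.173, limma adjusted p = 0.000201), while its heavy chain Slc3a2 did not pass (log2 fold change 0.11, limma adjusted p = 0.23, and 0.0309 without RANKL replicate 3). Slc25a15, the mitochondrial ornithine carrier, fell to 4.18 ± 0.154 FPKM, against 5.49 ± 0.257 FPKM.

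Slc7a1, a cationic amino acid carrier that takes up arginine, stood at 22.8 ± 1.88 FPKM with etelcalcetide and 24.7 ± 0.512 FPKM with RANKL, and its log2 fold change of -0.20 passed (limma adjusted p = 0.0388) although the groups overlapped; the call was lost under 7 of 15 alternatives. Slc7a6, a light chain that also carries arginine and was named after its values were seen, stood at 20.7 ± 0.541 FPKM with etelcalcetide and 19.99 ± 1.09 FPKM with RANKL and did not pass (limma adjusted p = 0.746). Slc7a2, the carrier known for supplying arginine in activated mouse macrophages, had 4, 6 and 7 reads with etelcalcetide, against 0, 0 and 2 reads with RANKL, which is a ratio of 8.54 after depth adjustment (95% exact conditional interval 2.03 to 76.2, counting error only). Otc and Cps1, which start the urea cycle in liver mitochondria, had 0 reads, and Nags and Slc25a2 had between 0 and 3 reads per library.

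In the branch that uses ornithine, the genes of polyamine synthesis named here fell. Of 18 genes of the polyamine and proline branch 16 were tested, of which 3 rose, 7 fell and 6 did not pass (median log2 fold change -0.22, against -0.01 over all tested genes). Odc1, ornithine decarboxylase, the first enzyme of polyamine synthesis, had 51.8, 50.9 and 47.0 FPKM with etelcalcetide, against 93.6, 82.4 and 87.0 FPKM with RANKL (log2 fold change -0.89, SE 0.0643, limma adjusted p = 9.27e-06). Its values were lower in every etelcalcetide library. Amd1, which makes the aminopropyl donor, fell to 22.5 ± 1.25 FPKM, against 38.3 ± 4.01 FPKM, and the spermine and spermidine synthases Sms and Srm fell by 0.71 and 0.38 on the log2 scale. Smox, the oxidase that turns spermine back into spermidine and gives hydrogen peroxide, moved the other way, with 27.8, 29.7 and 29.3 FPKM with etelcalcetide, against 12.9, 13.4 and 15.3 FPKM with RANKL (log2 fold change 0.98, SE 0.0716, limma adjusted p = 9.97e-06).

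The Odc1 level was 1.86, 1.72 and 1.61 times that of Smox in the etelcalcetide libraries, against 7.24, 6.14 and 5.70 times in the RANKL libraries. Oaz1, an antizyme that marks ornithine decarboxylase for degradation, had a log2 fold change of 0.15 and did not pass (limma adjusted p = 0.226), but passed without RANKL replicate 3 (adjusted p = 0.00444). Of its relatives, named after their values were seen, the antizyme Oaz2 rose to 28.3 ± 1.44 FPKM with etelcalcetide, against 18.0 ± 2.43 FPKM with RANKL (limma adjusted p = 0.00091), and the antizyme inhibitor Azin1 fell to 23.3 ± 1.23 FPKM, against 29.9 ± 0.902 FPKM (limma adjusted p = 0.000275). Prodh and Agmat of this list were too low to test. Arg2 rose while the decarboxylase that uses its product fell, which is a statement on transcripts and not on the flow of ornithine, which was not measured.

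**Figure D3:**
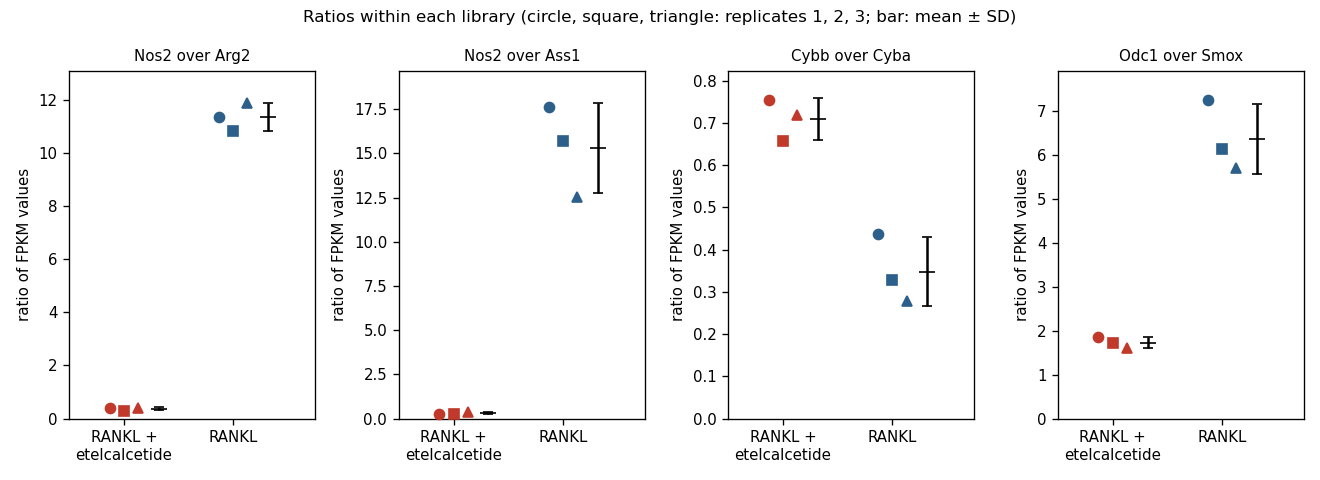
Ratios of FPKM values within each library, on linear axes from 0, RANKL + etelcalcetide on the left and RANKL on the right; symbols are replicates 1 to 3 and bars the mean ± SD (n = 3). Nos2 over Arg2 averaged 0.368 with etelcalcetide and 11.4 with RANKL, Nos2 over Ass1 0.299 and 15.3, Cybb over Cyba 0.709 and 0.347, and Odc1 over Smox 1.73 and 6.36 in the same order of groups.

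Among enzymes that remove superoxide and peroxide, which small changes passed depended on the scaling. Of 13 genes 12 were tested, of which 4 rose, 3 fell and 5 did not pass (median log2 fold change 0.10), while with library totals alone 6 rose and 0 fell. Prdx5, a peroxiredoxin of mitochondria and peroxisomes, rose to 53.8 ± 2.16 FPKM, against 29.7 ± 3.19 FPKM with RANKL (log2 fold change 0.78, limma adjusted p = 7.89e-05). Cat, catalase, rose to 46.5 ± 2.25 FPKM, against 35.8 ± 1.6 FPKM. Prdx1, the peroxiredoxin with the highest level, and Txnrd1, thioredoxin reductase, rose by 0.19 and 0.21 on the log2 scale. Txn1, thioredoxin, had a log2 fold change of -0.16 with overlapping groups, and its call was lost under 8 of 15 alternatives, while Sod3 was too low to test.

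Nos2 and Arg1 serve as markers of classical and alternative macrophage activation, so other markers of both states were counted. Of 12 classical markers 8 were tested, of which 6 rose, 0 fell and 2 did not pass (median log2 fold change 1.10), and of 12 alternative markers 5 were tested, of which 4 rose, 0 fell and 1 did not pass (median 0.80). Among the classical markers Il1b and Cxcl10 rose by 4.10 and 1.47, the transcription factor Irf5 rose to 105 ± 2.03 FPKM, against 52.0 ± 3.09 FPKM, and the cytokine Tnf to 45.0 ± 2.72 FPKM, against 26.3 ± 0.826 FPKM. Nos2 thus fell while every other classical marker that passed rose. Il12b, Il6, Cxcl9 and Ido1 of the same list had 0 reads in all 6 libraries. Among the alternative markers the chemokine Ccl22, the transglutaminase Tgm2, the factor Egr2 and the receptor Clec7a rose, by 4.75, 1.04, 0.80 and 0.68 on the log2 scale, and Retnla, Chil3 and Cd163, named after their values were seen, had 0 reads.

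Transcription factors known to act at Nos2, Arg1 or Cybb in macrophages were mostly higher. Of 10 tested, 8 rose, 1 fell and 1 did not pass (median log2 fold change 0.39). Irf1, an interferon-induced factor known from the Nos2 promoter in mouse macrophages, had 15.5, 16.7 and 18.1 FPKM with etelcalcetide, against 6.21, 5.73 and 7.41 FPKM with RANKL (log2 fold change 1.29, SE 0.099, limma adjusted p = 1.33e-05). Irf2, Rela and Nfkb1 rose by 0.55, 0.53 and 0.45. Spi1, which encodes PU.1, a factor of the CYBB promoter in human phagocytes, rose to 166 ± 2.25 FPKM, against 129.8 ± 8.01 FPKM, and Stat6 to 58.3 ± 0.0581 FPKM, against 43.9 ± 2.27 FPKM. The 1 factor that fell was Hif1a, named after its value was seen, which is known to act at Nos2 in low oxygen. It had 11.7, 10.4 and 10.3 FPKM with etelcalcetide, against 18.4, 13.7 and 13.0 FPKM with RANKL (log2 fold change -0.54, limma adjusted p = 0.00552), with RANKL replicate 1 the highest, as for Nos2 and Cybb.

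**Figure D4:**
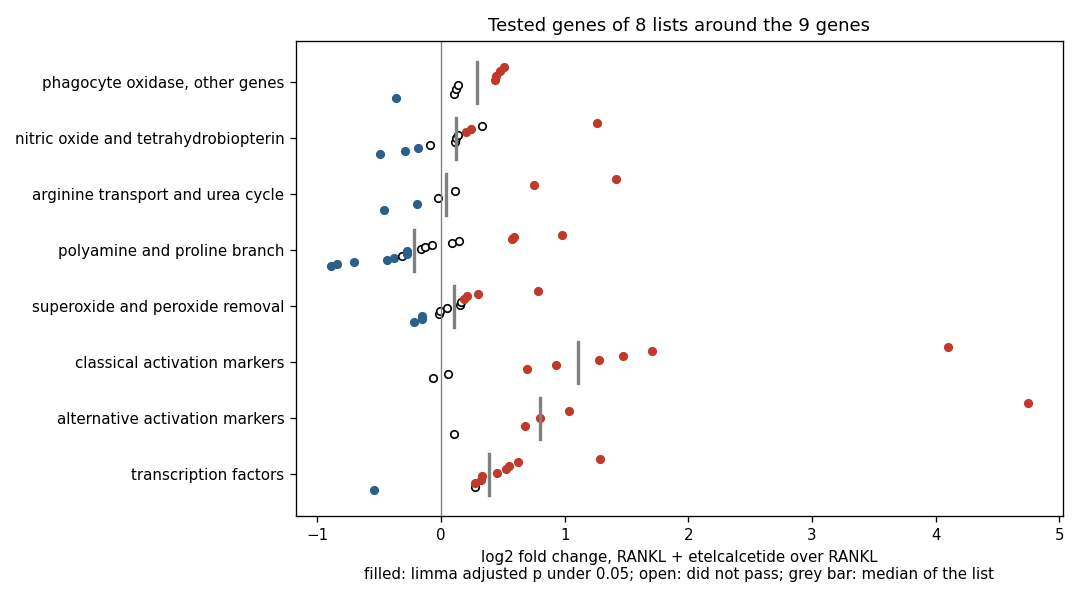
Log2 fold change of RANKL + etelcalcetide over RANKL for each tested gene of 8 lists, on the log2(FPKM + 0.1) scale; filled points passed at a limma adjusted p under 0.05, open points did not, and the grey bar is the median of a list. The polyamine and proline branch has the lowest median, -0.22, and the activation markers the highest, 1.10 and 0.80.

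RANKL replicate 1 differed from the other RANKL libraries in osteoclast genes as well. Acp5 and Ctsk, osteoclast enzymes that break down bone, had 90.4 and 69.1 FPKM there, against 124 and 114 FPKM in replicate 2 and 132 and 100.0 FPKM in replicate 3, while with etelcalcetide they ranged from 3.13 to 4.48 and from 0.129 to 0.241 FPKM. This library had the highest Nos2, Cybb and Arg2 of its group and the lowest Acp5 and Ctsk. The other oxidase genes went the other way: Cyba, Ncf1, Ncf4 and Rac2 were also lowest in this library, and Ass1 lay between the other RANKL libraries. By the sample labels RANKL replicate 1 had 5 days of exposure, against 6 and 7 days in RANKL replicates 2 and 3. The series design gives 5 days for all, and labelled time and replicate number cannot be told apart. Without RANKL replicate 1 the 6 calls among the 9 genes were kept in the same direction and Ncf4 joined them. The part of the shift in osteoclast and macrophage markers in the values of the 9 genes was not tested.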

How the data were processed

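Bulk RNA sequencing of 6 libraries was analysed, grouped and numbered by their titles. The authors deposited 1 value for each of 55536 Ensembl gene IDs in each library. The file headers name no unit. Multiplied by the merged exon length of mouse GENCODE M21 (GRCm38), 100% of the deposited values gave whole reads within 0.01, so they are FPKM by the authors' own scaling. The submitters' processing notes name HISAT2 2.1.0 and featureCounts 1.6.0, without their roles, and a human build, but all 55536 IDs matched the mouse annotation. Strandedness and library selection are not given in the sources used here.

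Libraries were scaled by TMM factors (1.01 to 1.04 with etelcalcetide, 0.967 to 0.978 with RANKL), and log2(FPKM + 0.1) was compared with limma 3.58.1 in R 4.3.3. Group was the only term, and the prior variance depended on the mean. Genes with 0.5 FPKM and 10 reads in at least 3 libraries were tested. Calls used a Benjamini-Hochberg adjusted p under 0.05 over all tested genes. Printed FPKM values are those deposited. The steps were tested on simulated data with a preset spread, the same for all genes. There 76% of 1.5-fold and 96.9% of 2-fold changes were recovered, and 7.07% of 184 calls were false. Far fewer genes were changed in the simulation than passed here, so these rates need not hold for the real libraries.

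Members and lists were chosen with earlier results of these data known. Named genes are all members and, of each list, up to 4 tested genes with the smallest adjusted p and the 2 with the highest mean FPKM, with a list's untested genes also named where fewer than 6 of its genes were untested; others are said to be chosen after their values were seen. Some genes that this rule names are not reported here, though list counts include them. Alternatives covered scaling, filter, pseudocount, prior variance, the replicate number as a block, limma's voom on recovered reads, and each library left out. Counting intervals cover counting error only.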

Additional observations from a re-analysis of the deposited data

How the results depend on the processing

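For the 9 genes the 6 calls held in the same direction under all 15 alternatives. The number that passed was 6 or 7, with Ncf4 added without RANKL replicate 1, with voom on recovered reads and with the replicate block. Ncf1, which never passed, changed sign with library totals alone (log2 fold change 0.0709) and when 1 library was left out (-0.04 to 0.0307). The number of genes that passed across the transcriptome was 5830 with library totals, 5355 with no filter and 6133 with voom, against 5894. Leaving out 1 library gave 4797 to 6168. Same-numbered libraries share the labelled days, but shared cultures are not stated, so the replicate numbers were not treated as pairs. Deviations from the group means correlated at r = 0.074, -0.019 and -0.030 between same-numbered libraries (11120 genes). Between differently numbered libraries r was -0.099 to 0.115. With 3 libraries per group these values cannot decide whether the numbers mark pairs. With the replicate block 5709 genes passed, and the limma adjusted p of Ncf4 was 0.039. Among other oxidase genes 8 passed with library totals, against 5. In the nitric oxide list 3 to 8 passed when 1 library was left out, against 6; without etelcalcetide replicate 3 and without RANKL replicate 2 it was 3. Of the genes that remove superoxide and peroxide, 5 rose and 1 fell with the replicate block, and 4 rose and 1 fell with a constant prior variance. For the tested members and the tested list genes picked by the naming rule, values were compared over all alternatives. Of these, 701 kept their direction and side of the threshold, 24 lost the call, 7 gained it and 3 changed sign. Genes named after their values were seen are not in this count, while rule-named genes not reported here are. Depth limits Arg1, Nox1, Noxo1 and Slc7a2 to counts of reads.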
